A study of Homo sapiens with 4 samples.

Results

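The histone genes of the short arm of chromosome 6 and the extended major histocompatibility complex (MHC) next to them lie between 25.7 and 33.5 Mb (chr6:25700001-33500000, hg19). H3K9me2, histone H3 carrying 2 methyl groups on lysine 9, was mapped there by CUT&RUN in K562, an established human myeloid leukemia cell line. Every broad peak that overlapped this stretch by at least 1 base was taken from each of 4 libraries, which gave 3797 of 1000000 listed peaks (0.38%). Control replicate 1 had 1030 peaks, control replicate 2 had 1027, knockout replicate 1 had 785 and knockout replicate 2 had 955. For the 2 control libraries the CRISPR guide was aimed at HPRT, a gene of purine salvage. For the 2 knockout libraries it was aimed at CUX1, which encodes a DNA-binding protein with CUT repeats and a homeodomain. All 4 came from the same line grown in the same medium, with no other treatment stated. The labels do not say whether the edited cells were clones or whether the replicates came from separate cultures. The tests therefore speak only of library-to-library spread, which may be technical. The names of the knockout peaks carry the tag cux1kd, and "knockout" follows the labels.

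H3K9me2 marks broad stretches of mostly silent chromatin and is laid down mainly by the methyltransferases G9a and GLP. Replication-dependent histone genes, which supply the histones packed onto new DNA in S phase, sit here in dense runs among transfer RNA genes. MHC class I genes encode molecules that show peptides to cytotoxic T cells, and class II genes those that show them to helper T cells. Class III lies between them and holds complement genes, tumor necrosis factor and HSP70 chaperone genes. K562 cells are known for having little or no HLA on their surface.

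The RefSeq gene table, built on GRCh38.p14, was used for names and gene order only, because its build is not that of the peaks. From H2AC1 to ZBTB9 it lists 260 protein-coding genes, of which 55 are histone genes, 19 HLA genes, 17 zinc finger or SCAN genes, 16 olfactory receptor genes and 7 butyrophilin genes, together with 144 transfer RNA genes. From HLA-F to MICB (class I) there are 49 protein-coding genes, from MCCD1 to NOTCH4 (class III) 59, and from TSBP1 to HLA-DPB1 (class II) 20. The stretch was divided into 9 sub-blocks, with class borders set at round positions from general knowledge of the gene order. No gene was assigned to a peak.

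Several gene families here are recent duplicates, and 2 pairs show how alike the copies are. HSPA1A and HSPA1B encode inducible HSP70 chaperones in class III, and HLA-DRB1 and HLA-DRB5 encode beta chains of class II molecules. The 250 bases before each gene's start are given 5′ to 3′ from RefSeq (GRCh38.p14), with the longest run shared by the pair in capitals. They are background on these families, and any link to the stretches without a peak described below was not tested.
HSPA1A: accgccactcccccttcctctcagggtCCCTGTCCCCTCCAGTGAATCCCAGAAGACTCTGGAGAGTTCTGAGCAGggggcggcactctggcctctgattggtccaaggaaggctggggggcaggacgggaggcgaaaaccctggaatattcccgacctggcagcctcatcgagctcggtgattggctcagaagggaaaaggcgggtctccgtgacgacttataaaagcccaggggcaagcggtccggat
HSPA1B: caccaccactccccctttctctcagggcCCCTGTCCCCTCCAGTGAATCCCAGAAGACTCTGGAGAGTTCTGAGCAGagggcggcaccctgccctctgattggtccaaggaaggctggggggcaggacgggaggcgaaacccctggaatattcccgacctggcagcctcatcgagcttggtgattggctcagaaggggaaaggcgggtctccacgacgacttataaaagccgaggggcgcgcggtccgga
HLA-DRB1: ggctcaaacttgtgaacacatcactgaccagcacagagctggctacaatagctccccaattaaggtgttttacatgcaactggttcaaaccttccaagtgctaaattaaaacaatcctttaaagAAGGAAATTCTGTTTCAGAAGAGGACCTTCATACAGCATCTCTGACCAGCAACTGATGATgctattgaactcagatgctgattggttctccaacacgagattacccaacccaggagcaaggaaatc
HLA-DRB5: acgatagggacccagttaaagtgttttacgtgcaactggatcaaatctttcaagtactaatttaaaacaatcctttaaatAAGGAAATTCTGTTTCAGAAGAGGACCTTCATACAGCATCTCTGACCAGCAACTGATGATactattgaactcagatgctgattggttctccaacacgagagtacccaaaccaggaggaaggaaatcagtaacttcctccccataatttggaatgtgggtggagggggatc
The HSPA1 pair shared a run of 49 bases and was identical at 94.4% of 249 aligned bases. The HLA-DRB pair shared a run of 60 bases and was identical at 91.7% of 206 aligned bases.

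The region was more densely covered than most of the genome, but about as densely as the stretches of chromosome 6 beside it. Peaks covered 39.7% and 38.1% of its bases in the control libraries, replicate 1 first, and 21.7% and 34.1% in the knockout libraries. The mean over all other 50-kb windows of chromosomes 1 to 22 and X was 22.8%, 22.3%, 13.9% and 19.2% in the same order, so the region was covered 1.74, 1.71, 1.56 and 1.77 times as densely. Its median window exceeded 83.5%, 82.4%, 75.1% and 84.6% of the other windows. The flanks used for comparison were 5 to 25 Mb and 33.5 to 58 Mb of chromosome 6. Across both flanks peaks covered 38.5% and 37.7% in control and 20.7% and 31.6% in knockout libraries.

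Within each library the region lay slightly above its flanks, by 0.045 and 0.015 on the log2 scale in the controls and by 0.068 and 0.111 in the knockouts. The mean log2 ratio was 0.060 (exact sign-flip permutation p = 0.125, two-sided, the smallest that 4 libraries allow). This order depended on the flank: against 5 to 25 Mb alone the mean was -0.013 (exact sign-flip permutation p = 0.625). It also turned when peaks per Mb were counted by the serial numbers in their names, which run beyond the end of each list. This counts peaks of any width rather than covered bases, and takes the numbers to index every peak called. The mean by this count was -0.055, with the region lower in all libraries (exact sign-flip permutation p = 0.125).

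**Figure D1:**
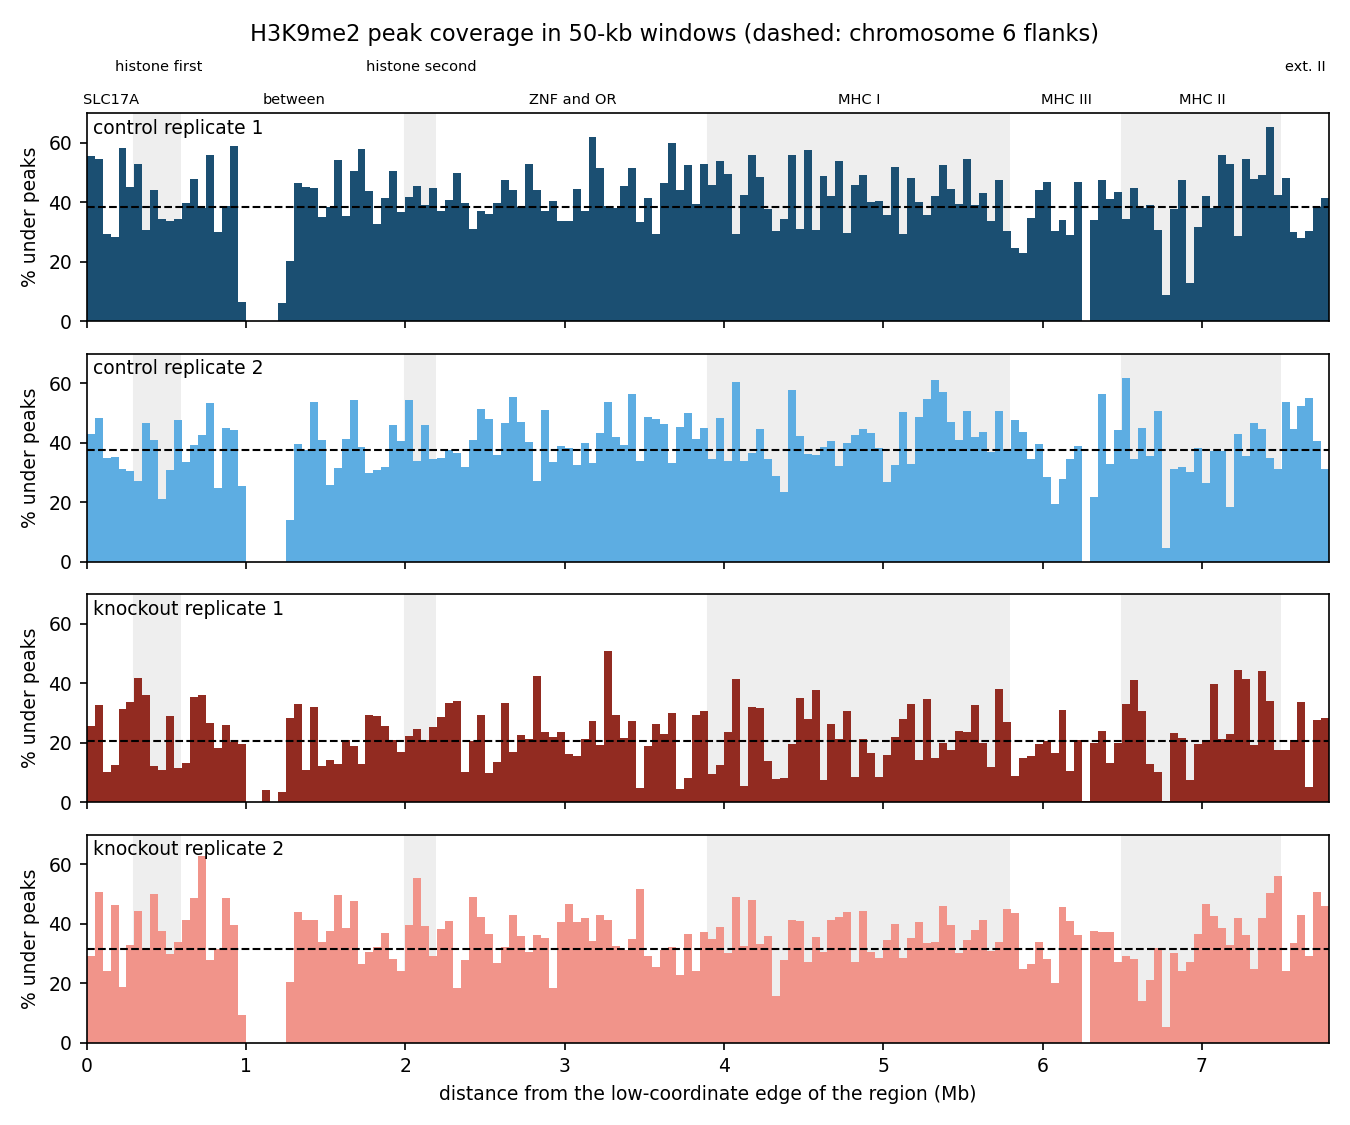
Percent of bases under peaks in 50-kb windows along the region, 1 panel per library, against the distance from its low-coordinate edge in Mb; shading alternates between sub-blocks and the dashed line is the library's value over both chromosome 6 flanks. Coverage varies from window to window around the flank value along most of the 7.8 Mb, and the same few windows, in the stretch between the histone clusters and in MHC classes III and II, stay under 10% in all 4.

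Knockout replicate 1 was the lowest library in all 9 sub-blocks. The spread from the most to the least covered sub-block was 11.1 and 15.4 percentage points in control and 8.45 and 10.7 in knockout libraries. In all 4 libraries the same 2 sub-blocks were the sparsest, the stretch between the histone clusters and MHC class III. The densest one differed in each library.

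The first histone run, 26.0 to 26.3 Mb, was 38.4% and 35.8% covered in control and 23.6% and 37.9% in knockout libraries. Knockout replicate 2 fell among the controls and knockout replicate 1 lay below them, so the groups overlapped. Relative to the flanks the log2 ratio was -0.004 and -0.076 in control and 0.187 and 0.263 in knockout libraries. Both knockouts were thus above both controls on this relative scale, with a difference of 0.265 (exact permutation p = 0.333, which is the floor for 2 against 2). With 1 limit of −log10 p for all lists the difference was 0.12 (exact permutation p = 0.667).

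The second histone run, 27.7 to 27.9 Mb, was 42.7% and 42.1% covered in control and 23.3% and 40.9% in knockout libraries. It lay above the flanks in all 4 libraries, with log2 ratios of 0.149, 0.159, 0.168 and 0.372 (mean 0.212, exact sign-flip permutation p = 0.125, 0.225 after Benjamini-Hochberg adjustment over 9 sub-blocks). By serial number, which counts peaks and not bases, it was level with the flanks, at a mean of -0.018. The first run did not stand apart from the flanks, with 2 libraries above and 2 below (mean 0.092, exact sign-flip permutation p = 0.5). The 2 runs differed by -3.32 points on average (first minus second), with 1 of 4 libraries the other way (exact sign-flip permutation p = 0.25).

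The stretch between the runs, 26.3 to 27.7 Mb, holds butyrophilin genes, further histone genes and transfer RNA genes. It was 34.1% and 30.9% covered in control and 18.6% and 30.1% in knockout libraries. That was below the flanks in all 4 libraries (mean log2 ratio -0.172, exact sign-flip permutation p = 0.125, adjusted 0.225). This low value came with a nearly peak-free gap. From 26668420 to 26831752, 163 kb held no peak in any library, and from 26847896 to 26933591 a further 85.7 kb held none. With 50-kb windows under a mean of 20% left out of the region and of the flanks, which was decided with the data in view, the stretch was 42.8% and 38.1% covered in control and 22.4% and 37.9% in knockout libraries. Its mean log2 ratio was then 0.091 (exact sign-flip permutation p = 0.25).

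The zinc finger and olfactory receptor stretch, 27.9 to 29.6 Mb, encodes DNA-binding regulators and odorant receptors, the latter silent outside the nose in most tissues. Coverage was 42.7% and 41.98% in control and 23.2% and 35.0% in knockout libraries. Its log2 ratio to the flanks varied least among libraries, from 0.148 to 0.163. It lay above the flanks in all 4 (exact sign-flip permutation p = 0.125, adjusted 0.225). The knockout minus control difference on that scale was 0.004.

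MHC class I, 29.6 to 31.5 Mb, was 42.7% and 41.7% covered in control and 21.7% and 35.9% in knockout libraries. It lay above the flanks in all 4 libraries, by log2 ratios of 0.065 to 0.187 (mean 0.136, exact sign-flip permutation p = 0.125, adjusted 0.225). By serial number its mean was -0.005. MHC class III, 31.5 to 32.2 Mb, was 34.2% and 33.6% covered in control and 16.9% and 31.4% in knockout libraries. It lay below the flanks in all 4 (log2 ratios -0.170, -0.169, -0.298 and -0.008, exact sign-flip permutation p = 0.125, adjusted 0.225).

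Class I exceeded class III in every library, by 8.43 and 8.12 points in control and 4.83 and 4.54 in knockout libraries (mean 6.48 ± 2.08, SD, n = 4, exact sign-flip permutation p = 0.125, 0.25 after adjustment over 4 pairs). Class III was still less covered than class I without its near-empty windows, at 36.9%, 36.1%, 18.1% and 33.8%, although knockout replicate 2 was then above its flanks. The order of the 2 classes turned in single libraries under other settings. In knockout replicate 2, class I was 23.6% and class III 24.5% covered with 1 limit of −log10 p, and 28.6% and 28.9% at equal covered length. In control replicate 1 they were 11.2% and 14.5% covered with 1 limit of −log10 q. With 1 limit of −log10 p the order against the flanks turned too. The mean log2 ratio for class III was then 0.084 (exact sign-flip permutation p = 0.5).

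MHC class II, 32.2 to 33.2 Mb, was 40.1% and 35.9% covered in control and 25.3% and 33.0% in knockout libraries. It lay on both sides of the flanks (log2 ratios 0.058, -0.070, 0.288 and 0.064, exact sign-flip permutation p = 0.5). Its highest relative value was in knockout replicate 1, where it was the densest sub-block. Class II exceeded class III in all 4 libraries, by 1.62 to 8.45 points (exact sign-flip permutation p = 0.125, adjusted 0.25). In knockout replicate 2 this order turned with 1 limit of −log10 p, to 20.99% in class II and 24.5% in class III, and at equal covered length, to 24.7% and 28.9%. With 1 limit of −log10 q it turned in knockout replicate 2 (27.8% and 28.5%) and in control replicate 1 (14.4% and 14.5%). The 2 controls lay furthest apart in the short end blocks. The SLC17A stretch, 25.7 to 26.0 Mb, which holds genes of phosphate and organic anion transporters, had 45.2% and 37.1% in control and 24.4% and 33.7% in knockout libraries. The extended class II end, 33.2 to 33.5 Mb, had 35.99% and 46.3% in control and 22.3% and 37.8% in knockout libraries.

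**Figure D2:**
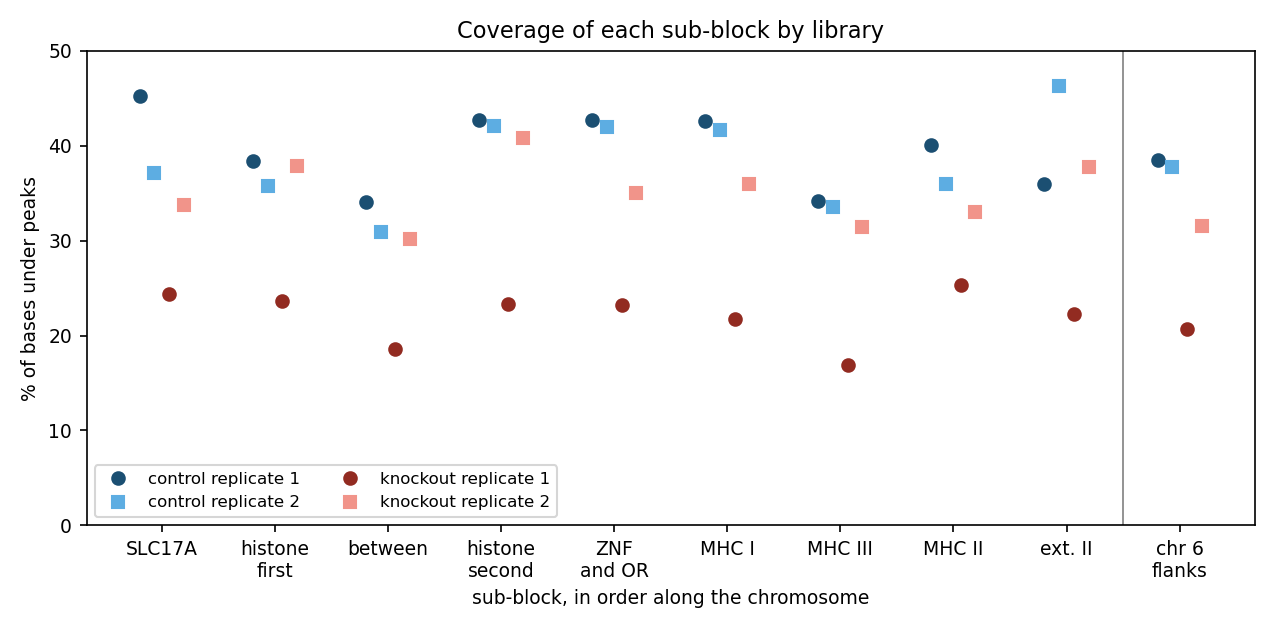
Percent of bases under peaks in each sub-block and in both chromosome 6 flanks together, 1 point per library; circles are replicate 1 and squares replicate 2, blue controls and red knockouts. Knockout replicate 1 is the lowest point in every sub-block, between 16.9% and 25.3%, while knockout replicate 2 lies close to the controls in several.

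The title of the series speaks of a reduction of H3K9me2 in cells without CUX1. Over the whole region coverage was 38.9% ± 1.13 in control and 27.9% ± 8.74 in knockout libraries (SD, n = 2 each), a difference of -11.0 points (two-sided exact permutation p = 0.333). Both knockouts lay below both controls, but the difference was -17.2 points for knockout replicate 1 alone and -4.83 for knockout replicate 2 alone. The knockout to control ratio was 0.717 in the region and 0.686 in the flanks, and the log2 ratio of region to flanks differed by 0.06 (exact permutation p = 0.333). That difference was -0.13 with 1 limit of −log10 p, -0.12 with 1 limit of −log10 q and -0.0096 at equal covered length, so its direction depended on the setting.

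The lists end at different strengths, and the sign of the difference depended on how that was handled. The lowest −log10 p listed was 1.25 and 1.27 in control and 1.49 and 1.35 in knockout libraries. With 1 limit of 1.49, region coverage was 21.1% and 23.2% in control and 21.7% and 23.5% in knockout libraries, groups that overlapped (exact permutation p = 0.667). With 1 limit of −log10 q at 0.0335 it was 12.4% and 26.0% against 19.9% and 29.5% (exact permutation p = 0.667). When all lists were shortened to the same covered length, the values were 28.9% and 28.4% against 21.7% and 27.96% (exact permutation p = 0.333).

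In single 50-kb windows no change passed. Of 156 windows, 152 had a mean of at least 1% and entered the fit over 54440 windows of the genome, and 0 were called by limma (Benjamini-Hochberg adjusted p under 0.05), as were 0 of all windows (0%) in either direction. The knockout mean was lower in 136 of the 152 and higher in 16. At an unadjusted p under 0.05 there were 17 falls (11.2%) and 0 rises, against 10.2% and 0.742% of all windows tested. Both knockouts lay below both controls in 74 of the 152 windows (48.7%, against 36.6% of all windows), and above both in 2 (1.32%, against 6.44%).

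The 5 windows with the smallest unadjusted p among falls did not pass (limma, adjusted p from 0.349 to 0.367). The first, chr6:29400001-29450000 in the zinc finger and olfactory receptor stretch, was 44.3% and 45.2% covered in control and 4.53% and 22.8% in knockout libraries, a difference of -31.1 points (SE 10). Its neighbour starting at 29450001 had 52.6% and 50.2% against 8.21% and 36.5%. In extended class II the window starting at 33200001 had 47.99% and 53.8% against 17.7% and 23.99%. The others started at 27400001, between the histone runs, and at 30500001 in class I, with differences of -28.3 and -26.4 points. In each of the 5 windows knockout replicate 1 was the lowest library.

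Rises were smaller. The 5 with the smallest unadjusted p had limma adjusted p from 0.779 to 0.819. At chr6:26950001-27000000, beside the peak-free gap, coverage was 20.1% and 14.1% in control and 28.3% and 20.5% in knockout libraries, 1 of the 2 windows in which the groups did not overlap upward. The other, chr6:32750001-32800000 in class II, had 37.97% and 37.1% against 39.7% and 42.6%, and is named for that reason, after its values were seen. At 26400001, 31800001 and 32900001 the windows differed by 9.07, 7.31 and 7.38 points with overlapping groups. The window starting at 26800001 held a peak in knockout replicate 1 only, which covered 4.11% of it.

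**Figure D3:**
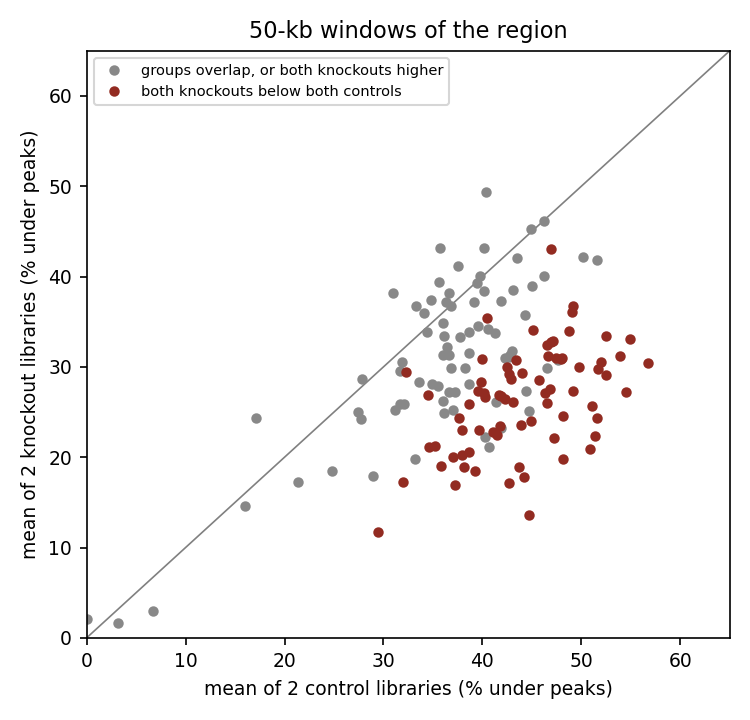
Mean coverage of each of the 152 tested 50-kb windows in the 2 control libraries (x axis, percent under peaks) and the 2 knockout libraries (y axis); the line marks equal values. Most points lie below the line, 136 of 152, and red marks the 74 windows in which both knockouts were below both controls.

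In windows of 1 Mb, 7 lie wholly inside the region. None of the 7 was called (limma), where 4.1% of the 2807 windows of the genome fell and 0.0713% rose. At an unadjusted p under 0.05 there were 0 in the region, against 16.9% falls and 0.321% rises in the genome. The differences themselves were not smaller: their median was -11.46 points in the region and -6.33 over all windows of the genome. The SE in the 7 windows was 5.25 to 9.32 points. Both knockouts lay below both controls in 6 of the 7, against 63.8% of all windows, and above both in 0, against 1.46%. The largest difference was -15.9 points from 29 to 30 Mb, with 44.9% and 42.8% in control and 21.2% and 34.6% in knockout libraries (limma, adjusted p = 0.324). From 26 to 27 Mb the values were 28.6% and 26.9% against 18.6% and 27.9%, a difference of -4.49 points. Without knockout replicate 2 limma called all 7 as falls, along with 1717 of 2810 windows of the genome, and without knockout replicate 1 it called 1, along with 357 of 2810. In both fits the knockout arm is 1 library, assumed to vary as the controls do.

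Peaks in the region were as wide as those beside it. The median width was 2543 and 2452 bp in control and 1773 and 2481 bp in knockout libraries, against 2484, 2556, 1659 and 2295 bp in the flanks. Within the region knockout replicate 1 had a smaller median than the other libraries. The difference of the knockout mean from the control mean was -14.8% (exact permutation p = 0.667). Divided by the smallest width in each list, the difference was 2.85%. Against the median of the whole list, widths in the region were 1.09, 1.08, 1.34 and 1.31 times as large. Peaks of at least 10000 bp numbered 11 and 8 in control and 1 and 8 in knockout libraries.

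The widest peak of each library fell in a different place. Control replicate 1 had 18056 bp at chr6:28856481-28874536 and control replicate 2 had 12674 bp at chr6:28556250-28568923, both in the zinc finger and olfactory receptor stretch. Knockout replicate 1 had 11709 bp at chr6:32984721-32996429 in class II. Knockout replicate 2 had 13251 bp at chr6:27773950-27787200 in the second histone run. None was covered in full by another library: the other libraries covered 8.2% to 54.8% of these spans, and the deposited folds were 1.66 to 1.84.

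Fine positions were shared only in part. The Jaccard index, the length under peaks of both libraries over that under peaks of either, was 0.345 for the controls, 0.212 for the knockouts and 0.229 to 0.358 across groups. Independent placement at the same coverage would give 0.242, 0.153 and 0.161 to 0.225. The closest pair was control replicate 2 with knockout replicate 2. All 4 libraries covered 4.18% of the region (326 kb), against 1.12% for independent placement, and in the flanks 3.03% (5 to 25 Mb) and 2.35% (33.5 to 58 Mb). Peaks of control replicate 1 that met a peak of control replicate 2 by at least 1 bp made up 78.8% in the region and 73.0% in the flanks. In the region 28.1% overlapped over at least 50% of both. Across all pairs the 1-bp share ran from 52.1% to 82.4% in the region and from 49.3% to 74.5% in the flanks. The region's lowest share was of control replicate 2 peaks meeting knockout replicate 1. Its highest was across groups, of knockout replicate 2 peaks meeting control replicate 2. For every pair both shares were lower in the flanks.

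Across the 156 windows, Pearson's r between libraries was 0.35 to 0.51. Over the 147 windows with a mean of at least 20% it was 0.06 to 0.17, and in the flanks 0.02 to 0.14 over 847 windows. Windows of a library share its list and depth, and these values are descriptions. Which of the well-covered windows were higher or lower thus varied from library to library, and the 50-kb profiles were alike mainly in the gaps. Leaving out sparse windows also narrows the range, which can by itself lower r. At the scale of bases, sharing went beyond the gaps. In the zinc finger and olfactory receptor stretch, without sparse windows, 4.26% was covered in all 4 libraries, against 1.46% for independent placement.

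Of the stretches covered in all 4 libraries, the longest was 5169 bp at chr6:27978762-27983930 in the zinc finger stretch, under peaks of 7197, 7669, 5420 and 8456 bp with folds of 1.72, 1.55, 1.77 and 1.64. The next were 4065 bp at chr6:31416529-31420593 and 3550 bp at chr6:29754655-29758204, both in class I, and 3173 bp at chr6:27803183-27806355 was the longest in the histone runs. These were weak peaks, with −log10 p from 1.31 to 1.92 in the 4 libraries.

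Peak-free stretches were shared more plainly. Beside the gap between the histone runs, 44.0 kb in class I (chr6:30027830-30071854) held no peak in any library. In class III, 41.2 kb (chr6:31964579-32005728) and 23.1 kb (chr6:31783332-31806424) held none, and in class II 20.6 kb (chr6:32460823-32481402). The window from 31950001 to 32000000 had 0% in 3 libraries and 0.554% in knockout replicate 1. The window from 32450001 to 32500000 had 8.85% and 4.64% in control and 0.604% and 5.41% in knockout libraries. As background, class III carries the tandem genes of complement component C4 and the HSPA1A and HSPA1B pair shown above, and class II the near-copies of HLA-DRB. Where these genes lie relative to the gaps, and how uniquely reads could be placed there, was not tested. Windows with a mean under 20% made up 5.77% of the region (9 of 156) and 4.83% of the flanks. The lists held 0 peaks on alternative contigs.

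Strong peaks were denser in the region than beside it in every library, and densest in class III in 3 of the 4. The strongest 1% of each list by −log10 p, 2500 peaks, was taken, again decided with the data in view. The region held 24 and 55 of these in control and 12 and 67 in knockout libraries, or 3.08, 7.05, 1.54 and 8.59 per Mb. The flanks held 1.33, 1.19, 1.08 and 1.3 per Mb, and the genome 0.824. The region exceeded its flanks in 4 of 4 libraries, by 3.84 per Mb on average (exact sign-flip permutation p = 0.125, the smallest that 4 libraries allow), 5.92 and 6.59 times in the replicate 2 libraries of the 2 groups and 2.32 and 1.43 times in the replicate 1 libraries. The groups overlapped. For the strongest 500 and 5000 peaks the mean excess was 1.22 and 5.42 per Mb, a measure that grows with the number of peaks taken. As ratios to the flanks, the controls had 2.85 and 10.4 at 500 peaks and the knockouts 1.27 and 7.34. At 5000 peaks these were 2.29 and 4.15 in control and 1.21 and 4.19 in knockout libraries.

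Class III, sparsest by coverage together with the stretch between the histone runs, held the most strong peaks per Mb in both controls (8.57 and 20.0) and in knockout replicate 2 (18.6). In knockout replicate 1 it held 1.43, less than the first histone run. The first histone run had 3.33 and 10.0 in control and 3.33 and 16.7 in knockout libraries. The second run had 0 in both replicate 1 libraries and 10 and 15 in the replicate 2 libraries of control and knockout. Class II had 2.0 to 3.0 per Mb, 1.51 to 2.3 times the flanks, and the SLC17A stretch held 0 in all 4.

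Strong peaks fell at 109 loci of the region, of which 71 were strong in 1 library only, 28 in 2, 9 in 3 and 1 in all 4. Control replicate 2 and knockout replicate 2 shared 32 loci, the controls 11 and the knockouts 4. Class III held 11 of the 38 loci strong in more than 1 library, the zinc finger and olfactory receptor stretch 8 and the stretch between the histone runs 7. The replicate 1 libraries of control and knockout shared 1, and these 2 libraries also held the fewest strong peaks in the region.

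The locus strong in all 4 was chr6:31587726-31589446 in class III. Its peaks were 1482 and 1447 bp in width in control and 1551 and 1059 bp in knockout libraries, with folds of 3.24, 2.82, 2.7 and 3.37 and −log10 p of 5.06, 6.47, 2.88 and 7.71. At chr6:31670386-31672143, also in class III, folds were 1.93 and 3.0 in control and 1.78 and 3.31 in knockout libraries, and −log10 p was 1.95, 9.38, 1.51 and 9.24. Both replicate 2 libraries were high at this second locus and both replicate 1 libraries low. In the first histone run, chr6:26234175-26235808 had folds of 2.03 and 2.43 in control and 2.63 and 2.18 in knockout libraries. These are the authors' folds over the caller's local background.

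At these 3 loci no peak was wider than the median peak of its library in the region: they measured 1059 to 1551 bp at the first, 754 to 1773 bp at the second and 1072 to 1962 bp at the third. Other strong loci held wider peaks, such as 10528 bp at chr6:26657892-26668419 in control replicate 2. The median width of the region's strong peaks was 2371 and 2057 bp in control and 721.5 and 2075 bp in knockout libraries. Over all strong peaks of each list it was 1278.5, 1787, 708 and 1770 bp. Peaks that reached a q of 0.05 numbered 1 and 12 in control and 0 and 18 in knockout libraries, and 7 of the 12 and 7 of the 18 lay in class III. The region held 12 of the 312 such peaks of control replicate 2 and 18 of the 460 of knockout replicate 2. The replicate 1 lists held 17 (control) and 9 (knockout) in all, so the libraries with fewer strong members also had fewer significant peaks genome-wide. The part of library strength in these counts was not tested. Most members were weak by the caller's own measure, with a median −log10 p of 1.52, 1.55, 1.67 and 1.63.

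**Figure D4:**
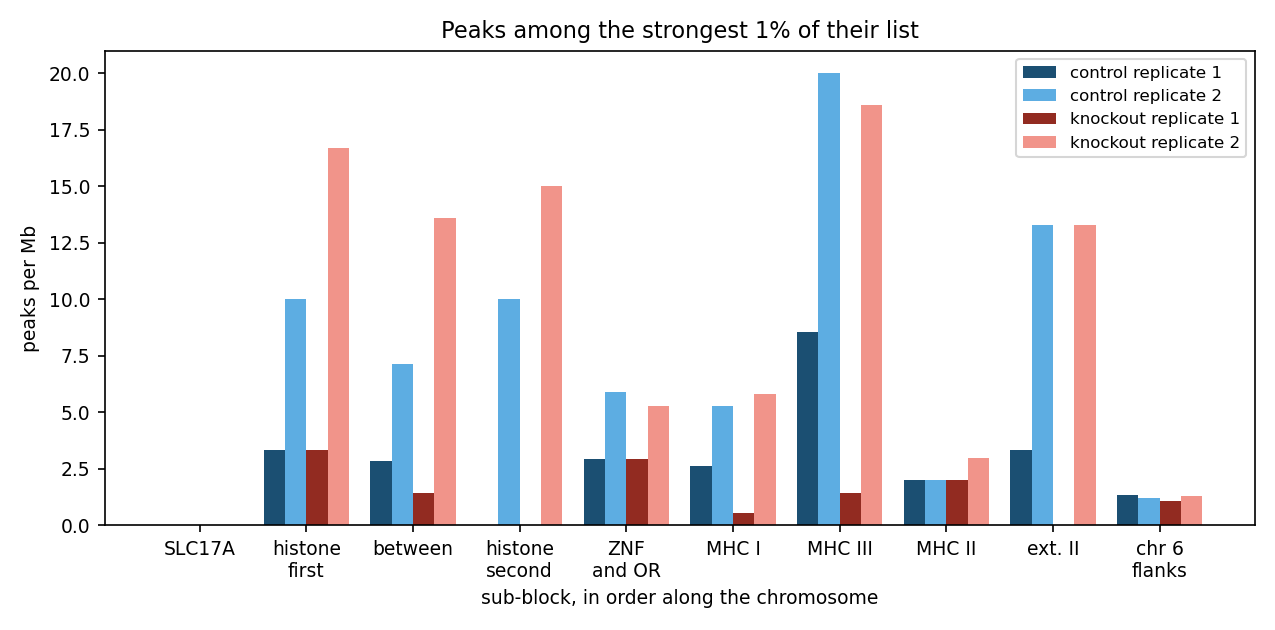
Number of peaks per Mb that belong to the strongest 1% of their own list, by sub-block and library, with both chromosome 6 flanks at the right; bars start at 0. Class III reaches 20.0 and 18.6 per Mb in control replicate 2 and knockout replicate 2, while the flanks stay between 1.08 and 1.33 in all libraries.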

How the data were processed

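MACS2 2.1.0, BWA 0.7.17, deepTools 3.5.1, SAMtools 1.16.1 and hg19 are named in the submitters' processing notes. Settings, any background library and the meaning of the tag sub54 in the peak names of control replicate 1 are not given in the sources used here. Read depth is unknown, and with it the precision it would give. The authors deposited 1 broad peak list per library, 250000 peaks each, with a score (10 times −log10 p, cut to a whole number in nearly every peak), a fold (ratio over the local background), and −log10 of p and of q. These deposited values served only to describe, rank or filter peaks. The sample titles gave group and replicate.

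Covered bases were counted once per library (Python 3.11.15, pandas 2.3.3) on chromosomes 1 to 22 and X. Lists covered 693, 679, 423 and 585 Mb. The percent of each 50-kb or 1-Mb window under peaks was fitted genome-wide with limma 3.58.1 (eBayes, trend on, in R 4.3.3; windows with a mean of at least 1%), with Benjamini-Hochberg adjustment at 0.05. On simulated data the 50-kb fit recovered 80% of changes of 40 points and the 1-Mb fit 77% of changes of 20 points, with 15 and 1 false calls. The simulated percentages could turn negative. In the region the median 50-kb window was 40.5% and 39.0% covered in control, so many windows could not lose 40 points. Recovery of the smaller falls possible in them was not tested. Neighbouring windows are not independent. Knockout and control were compared by exact permutation of libraries between groups, where 0.333 is the smallest p. Sub-blocks were compared with the flanks and with each other by exact sign flips over libraries, where 0.125 is the smallest.

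Windows were named by a rule: those called, otherwise the 5 per direction with the smallest unadjusted p. The members, sub-blocks and lists were chosen with earlier results of these data known. Alternatives are a limit on p or q, equal covered length, gaps up to 2000 bp filled, other flanks or window sizes, quantile normalization and leaving out each library. Sequences under peaks were not used here, because no hg19 genome was at hand. Of the 260 protein-coding genes, 231 have an entry in the promoter table.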

Additional observations from a re-analysis of the deposited data

How the results depend on the processing

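The difference in percent covered between knockout and control, -11.0 points, was 0.449 with 1 limit of −log10 p and 5.48 with 1 limit of −log10 q, and from -17.2 to -4.83 with 1 library left out. The log2 ratio of the region to its flanks, knockout minus control (0.06), was -0.132 with the limit on p, -0.12 with that on q and -0.0096 at equal covered length, and from 0.038 to 0.081 with 1 library left out. Over both groups, the region against the flanks was -0.013 with the low-coordinate flank only and -0.055 by serial number, and from 0.043 to 0.075 with 1 library left out. With the limit on p the stretch between the histone clusters was at 0.065 and class III at 0.084 against the flanks, and without sparse windows the former was at 0.091. By serial number the second histone run was at -0.018, class I at -0.0045 and class II at -0.029. The width difference was 2.85% in units of the smallest width, and from -29.0% to -0.661% with 1 library left out. The excess of strong peaks was 2.69 to 4.97 per Mb with 1 library left out and 1.22 to 9.88 over the other numbers of peaks. As a ratio to the flanks it was 1.27 to 10.4 with 500 peaks and 1.26 to 2.27 with 25000. With 1 library left out, calls among the region's 1-Mb windows were 0 to 7 falls, the 7 in a fit that called 1717 of 2810 windows of the genome. Calls among the region's 50-kb windows were 0 under every alternative run, as they were in 100-kb windows. The cause of these changes was not tested.

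With a replicate block the differences in means were the same by construction (-11.0 points), and limma called 0 of the region's windows of either size (genome-wide, 220 falls of 1 Mb against 115 without the block). In 50-kb coverage, same-numbered libraries did not deviate together (r = 0.029 in the region, 0.035 in all), and the tests did not take the numbers as pairs. This r does not cover strong peaks. There the replicate 2 libraries of control and knockout shared 32 loci and the replicate 1 libraries 1, against 11 for the controls and 4 for the knockouts. Whether the numbers mark a batch was not tested. Across the 9 sub-blocks, 88 of 120 alternative values of the knockout minus control log2 ratio moved by less than the spread between libraries. The other 32 moved by more. The 88 include every fit with a replicate block, where the value is unchanged by construction, and every fit that left out a library. They are therefore not a measure of stability. With read depth unknown, differences smaller than the spread between knockout replicates could not be resolved.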
